A study of Sus scrofa with 4 samples.

Results

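The probe sets described here stand for protein kinase A, for proteins that bind or respond to cyclic AMP (cAMP) signals, and for phosphodiesterases, measured in pig liver after long feeding with clenbuterol. Probe sets are groups of short probes that read 1 transcript on an Affymetrix array. Members were 4 probe sets listed as PRKACB, PPARGC1A, JUN or MYC with an array description naming the same gene, plus 33 probe sets whose description holds the words cAMP-dependent, cAMP responsive, phosphodiesterase or adenylate cyclase. That gave 37 probe sets, for 28 genes by name, of the 15383 probe sets in the table of GCRMA values, which are background-corrected expression values on a log2 scale.

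RNA came from the livers of 4 Chinese miniature pigs aged 4 months, 1 array per pig. The clenbuterol group had 2 pigs, a male (replicate 1) and a female (replicate 2), whose diet held clenbuterol at 25 mg/kg given 2 times a day for 4 weeks and then at 50 mg/kg for 4 weeks. The control group had 2 pigs, again a male and a female, kept in the same way without clenbuterol. All 4 pigs shared the same diet and housing until 8 weeks of age, at a mean weight of 18 kg. The series' design text calls the 2 pigs of a group full sibs of one gender, which goes against the sexes listed per sample; if each group was 1 family, family and treatment cannot be told apart. The labels do not say whether the dose is per kg of feed or of body weight.

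Clenbuterol is a beta-adrenergic agonist. Its receptor couples through the G protein Gs to adenylate cyclase, which makes cAMP; cAMP binds the regulatory subunits of protein kinase A and frees the catalytic subunits. The freed kinase phosphorylates CREB, which with its coactivators switches on target genes, among them PPARGC1A in liver. Those phosphodiesterases of the cyclic nucleotide class that cleave cAMP end the signal.

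Of the 37 probe sets, 31 passed the filter, which asked for a log2 value no lower than 4 in 2 or more of the 4 arrays, and were tested with limma together with all 11931 probe sets that passed, at a Benjamini-Hochberg adjusted p under 0.05. Among them 5 were higher and 3 were lower with clenbuterol and 23 did not pass the threshold. These 8 are 25.8% of the tested members, and 23.8% of all tested probe sets passed (11.4% higher and 12.4% lower), so the share among the members was near that of the whole array. PRKACB, PPARGC1A, JUN and MYC were members by name, chosen with earlier results of these data known, and all 4 rose. The share called and the count of higher members therefore rest in part on that choice. The median difference, clenbuterol minus control, was 0.11 (log2) over the 31 tested members and −0.03 over all tested probe sets. The authors' deposited table marks 2 of the 37 as chosen by both of its tools, CREB3L3 (probe set a) and ENPP3.

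**Figure D1:**
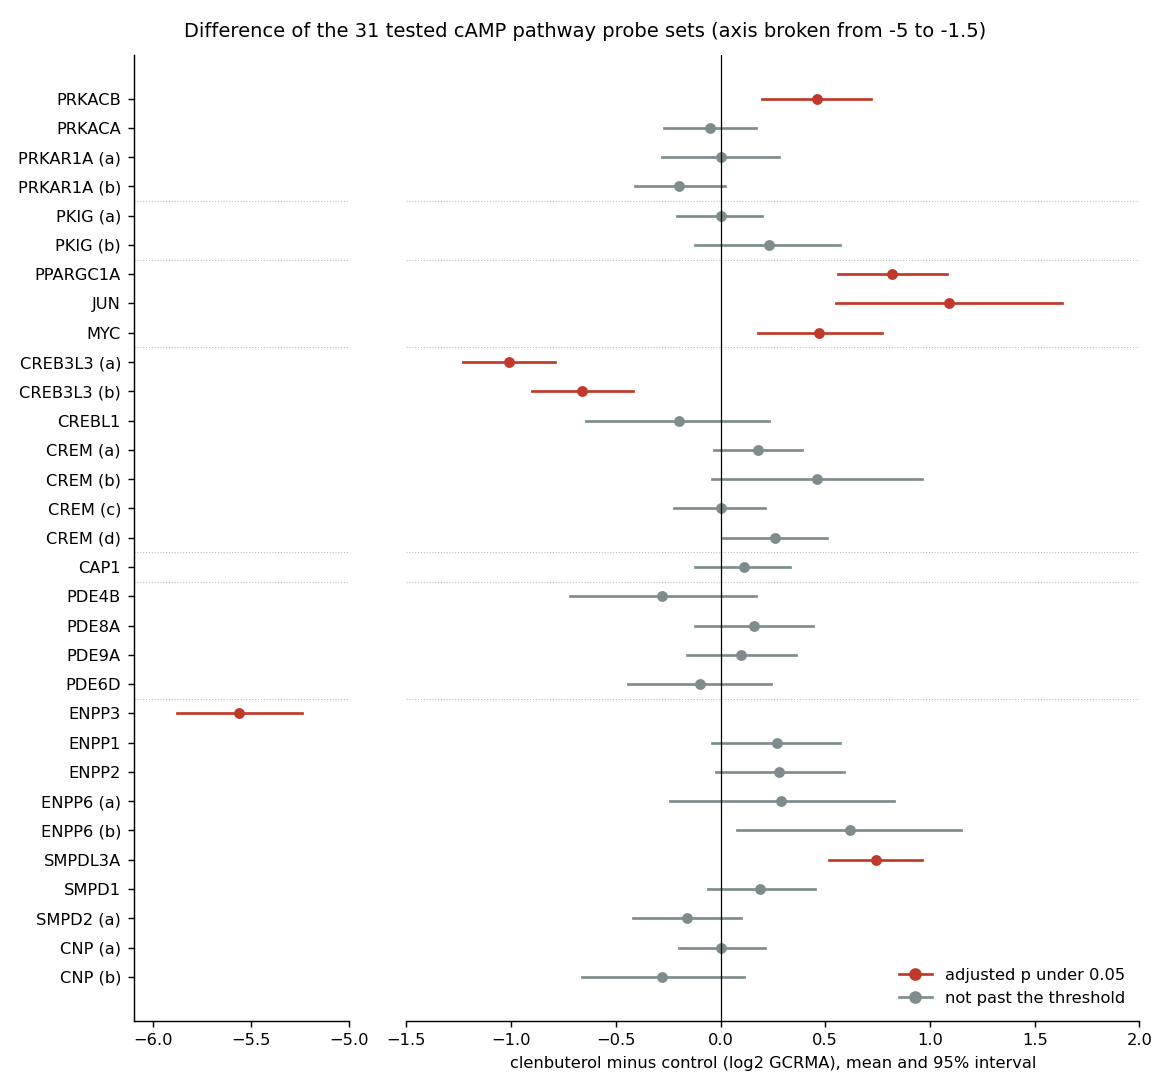
Clenbuterol minus control (log2 GCRMA, horizontal axis) for the 31 tested probe sets (rows, in groups by role); points are the differences of 2 against 2 arrays, bars their 95% intervals from limma. Red marks the 8 probe sets past the threshold; the ENPP3 difference of −5.56 stands alone left of the axis break, and the other red points lie between −1.01 and 1.09.

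Protein kinase A itself showed 1 change among the tested members. PRKACB encodes the beta form of the catalytic subunit. Its probe set, described by the array design as the C-beta subunit, had log2 values of 8.98 and 9.16 on the clenbuterol arrays and 8.63 and 8.59 on the control arrays. The groups did not overlap, and PRKACB rose by 0.46 ± 0.10 (log2, SE; 1.38-fold) with a limma adjusted p of 0.0371. That call ended when any 1 of the 4 arrays was left out, with adjusted p between 0.0689 and 0.127, and on the second deposited table of intensities, at 0.119. Another probe set listed as PRKACB, but described only as a transcribed locus and so no member, read 8.95 and 9.10 with clenbuterol and 8.99 and 8.99 in controls. It differed by 0.03 ± 0.09 (adjusted p 0.811 by limma, 95% interval −0.21 to 0.28), so the probe sets listed for this gene did not give one reading.

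The other kinase members did not pass the threshold. PRKACA, the alpha catalytic subunit, read 5.98 and 5.93 with clenbuterol and 5.98 and 6.04 in controls. The difference was −0.05 with a 95% interval of −0.27 to 0.17. Its intensities were 223 in the male and 289 in the female given clenbuterol, against 351 in the male and 349 in the female control. Limma on log2 intensities gave −0.46 with an adjusted p of 0.119, and −0.09 (adjusted p 0.759) when they were scaled to spiked-in control transcripts. PRKAR1A, the type I regulatory subunit that holds the catalytic subunit inactive, was read by 2 probe sets, a and b. Probe set a differed by 0.00 (interval −0.28 to 0.28), and probe set b, at 11.40 and 11.46 with clenbuterol against 11.65 and 11.61 in controls, by −0.20 (interval −0.41 to 0.02). Of the 2 probe sets for PKIG, a small protein that blocks the catalytic subunit, a differed by 0.00 and b by 0.23, with intervals of −0.21 to 0.20 and −0.12 to 0.57. PRKAR2A, a type II regulatory subunit, was below the filter.

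A regulatory subunit outside the members did change. PRKAR2B, the type II beta subunit, is described without the hyphen in cAMP dependent and so fell outside the member rule, but it belongs to the list of 7 kinase subunits. It read 8.00 and 8.23 with clenbuterol and 9.06 and 8.95 in controls, lower by 0.89 in size (difference −0.89 ± 0.11, adjusted p 0.0134 by limma). The call ended without control array 1 (0.0544) or clenbuterol array 1 (0.058), and when intensities were scaled to spiked-in control transcripts (difference −0.38, adjusted p 0.171). Of the 4 kinase subunits measured, 1 rose and 1 fell, beside 20.7% called higher and 6.35% called lower among the 850 named genes.

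PPARGC1A, JUN and MYC all rose. PPARGC1A encodes PGC-1 alpha, a coactivator that drives mitochondrial and gluconeogenic genes. It read 9.85 and 9.80 with clenbuterol and 9.10 and 8.93 in controls. Both clenbuterol arrays lay above both control arrays, and the rise was 0.82 ± 0.10 (1.76-fold, adjusted p 0.0119 by limma). It passed on the intensities too (adjusted p 0.0459), but not without clenbuterol array 1 (0.0622) or clenbuterol array 2 (0.0567).

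JUN is a subunit of the AP-1 transcription factor and an early response gene. It read 10.88 and 11.33 with clenbuterol and 9.86 and 10.17 in controls, the widest spread between arrays of one group among the 4 genes named in the rule. The groups stood clear of each other, and the rise was 1.09 ± 0.20 (2.13-fold, adjusted p 0.0277 by limma). Leaving out any 1 array ended the call (0.05 to 0.0831), as did the intensities (0.0655) and testing without the filter (0.0538).

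MYC, a transcription factor of growth and ribosome production, read 7.73 and 7.56 with clenbuterol and 7.25 and 7.09 in controls. Again the groups did not overlap, and the rise was 0.47 ± 0.11 (1.39-fold, adjusted p 0.0455 by limma). This was the call nearest the threshold among the 8, and it ended without any 1 array (0.0854 to 0.154), on the intensities (0.0741) and without the filter (0.0647).

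**Figure D2:**
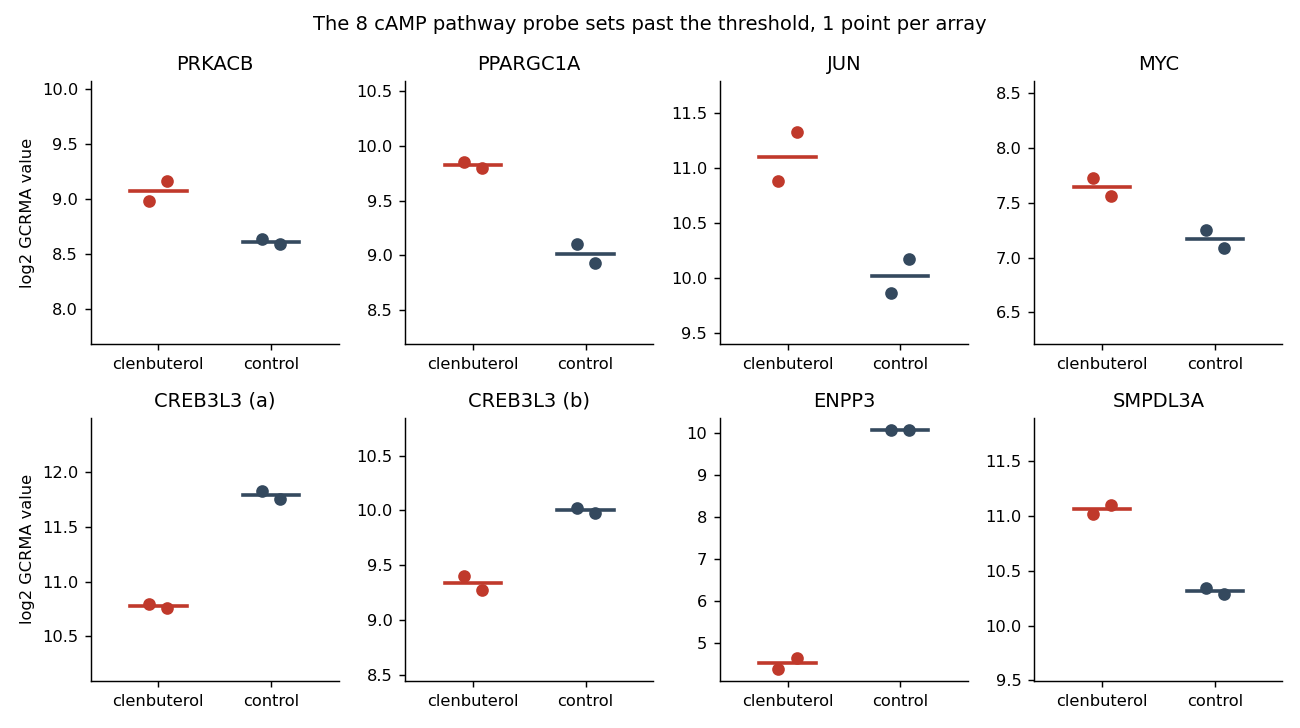
Log2 GCRMA value (vertical axis, its own range in each panel) of the 8 probe sets past the threshold; each point is 1 array, clenbuterol left of control, and each bar the mean of 2 arrays. In every panel the groups stand apart, PRKACB, PPARGC1A, JUN, MYC and SMPDL3A higher with clenbuterol and CREB3L3 and ENPP3 lower.

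Among the proteins named for the cAMP responsive element, CREB3L3 fell. CREB3L3 is a membrane-bound transcription factor made mainly in liver and gut, which is cut free under stress or fasting and acts on lipid and acute phase genes; both of its probe sets were described as moderately similar to the human or rodent protein. Probe set a read 10.80 and 10.76 with clenbuterol and 11.83 and 11.75 in controls, a difference of −1.01 ± 0.08 (2.02-fold lower, adjusted p 0.00593 by limma). Probe set b read 9.40 and 9.27 with clenbuterol and 10.02 and 9.98 in controls, a difference of −0.66 ± 0.09 (1.58-fold lower, adjusted p 0.0151). Both probe sets thus moved the same way, each with no overlap between groups. The call for a held when any 1 array was left out (0.0269 to 0.0448), whereas that for b ended with each (0.0562 to 0.0649) and under scaling to the spikes (difference −0.23, adjusted p 0.408).

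The remaining members of this group were CREM, CREBL1 and CREB3L4. CREM encodes both activators and repressors of cAMP responsive genes. Its probe sets a and b, described as highly similar to the known protein, differed by 0.18 and 0.46. Probe set b read 9.28 and 9.66 with clenbuterol and 8.84 and 9.19 in controls, as large a difference as that of PRKACB but with a wider interval (−0.04 to 0.96, adjusted p 0.152 by limma). Probe sets c and d were only weakly similar to CREM and differed by 0.00 and 0.26, neither past the threshold. CREBL1, now named ATF6B and a sensor of the endoplasmic reticulum rather than a cAMP target, read 6.92 and 6.96 with clenbuterol and 6.93 and 7.36 in controls. Its difference was −0.20 (interval −0.64 to 0.23), and CREB3L4 was below the filter.

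Members named for adenylate cyclase or as cyclic nucleotide phosphodiesterases gave no call on the GCRMA values, and no cyclase itself was tested. ADCY3, an adenylate cyclase, and ADCYAP1, a peptide hormone that activates the cyclase, were below the filter; across the 6 members below it, log2 values ran from 1.77 to 4.08. CAP1, an actin-regulating protein named for its association with the yeast cyclase, differed by 0.11 (interval −0.12 to 0.33). Of 5 cyclic nucleotide phosphodiesterases PDE3A was below the filter, and PDE4B, PDE8A, PDE9A and PDE6D differed by −0.28 to 0.16. Of these, 0 passed the threshold of limma and 0 had an unadjusted p below 0.05. PDE4B is described as specific for cAMP, while the description of PDE6D, a delta chain, names another cyclic nucleotide, cGMP. Those of PDE8A and PDE9A name neither, so not all of these genes can be taken to bear on cAMP.

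PDE4B, which cleaves cAMP, depended on the table used. Its GCRMA values were 6.17 and 6.44 with clenbuterol and 6.76 and 6.41 in controls, which overlap (adjusted p 0.285 by limma). Its intensities were 165 in the male and 180 in the female given clenbuterol, against 311 in the male and 296 in the female control, with no overlap, and limma on log2 intensities gave −0.82 with an adjusted p of 0.0229. The background of that fit was 11.1% of probe sets called, and scaling the intensities to the spikes ended the call (−0.44, adjusted p 0.116).

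The member with the largest difference was no cyclic nucleotide phosphodiesterase. The probe set described as moderately similar to ENPP3, a cell surface enzyme that cleaves nucleotides outside the cell, read 4.37 and 4.64 with clenbuterol and 10.07 and 10.06 in controls. The clenbuterol values lay just above the filter of 4, so the size of the fall is uncertain. The difference was −5.56 ± 0.12 (adjusted p 0.00101 by limma), and the call held under every alternative run. On the linear intensities it read 136 in the male and 162 in the female given clenbuterol, against 2010 in the male and 1840 in the female control, and the mean difference was smaller in size, −3.69 (log2). The fall stood in both tables, and its size differed between them.

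Of the other 10 probe sets described as phosphodiesterases of other substrates, 1 passed the threshold, 8 did not and 1, for SMPD2, was below the filter. A probe set described as moderately similar to SMPDL3A, a secreted relative of acid sphingomyelinase, read 11.02 and 11.10 with clenbuterol and 10.34 and 10.29 in controls, a rise of 0.74 ± 0.08 (1.67-fold, adjusted p 0.0107 by limma). The deposited symbol of this probe set is B2M, so its gene is uncertain, and the call ended without clenbuterol array 1 (0.0544) or clenbuterol array 2 (0.0545) and on the intensities (0.0514). ENPP1, ENPP2, ENPP6, SMPD1, SMPD2 and CNP did not pass; ENPP6 (probe set b) had the largest of these differences, 0.62, with an adjusted p of 0.0938.

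The male and the female pair could be set apart on the intensities, where 1 pig stands for each sex and group and no test is possible. All 8 called probe sets moved the same way in both pairs. They were called on GCRMA values of the same pigs, where the groups did not overlap. Like signs in both pairs were therefore largely set by that choice, and a like response of the sexes was not tested. PRKACB differed by 0.24 (log2) between the males and 0.60 between the females, and SMPDL3A by 0.45 and 0.72. The pairs lay closer for PPARGC1A, at 0.64 in males and 0.75 in females, for JUN, at 0.66 and 0.77, and for MYC, at 0.44 and 0.39. CREB3L3 (probe set a) differed by −1.03 in males and −1.06 in females. Over all 31 tested members, 25 had the same sign in both pairs, and the share over all tested probe sets was not counted.

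**Figure D3:**
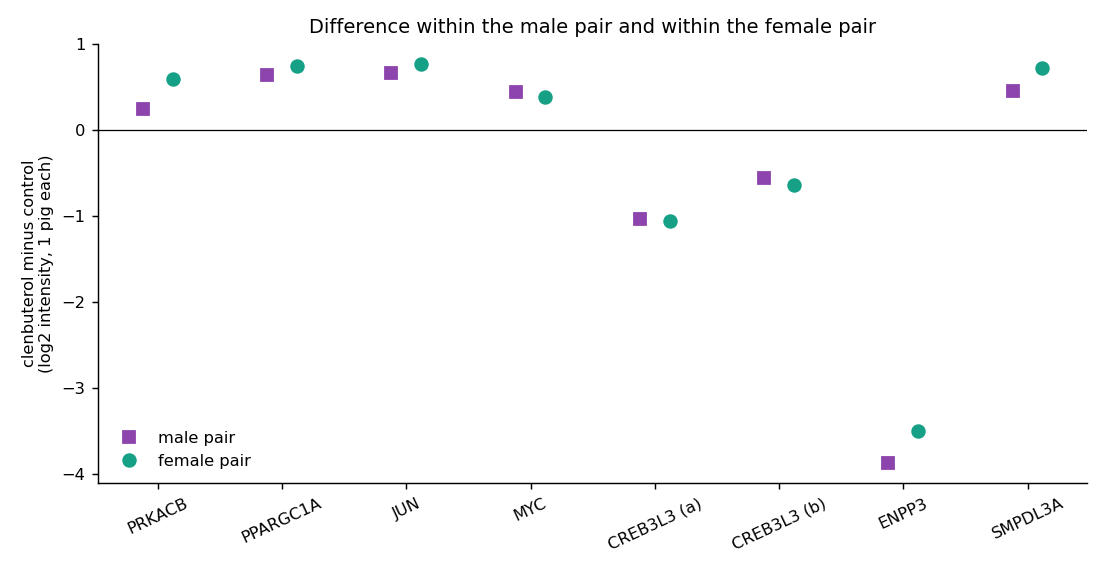
Clenbuterol minus control (log2 intensity, vertical axis) within the male pair (squares) and the female pair (circles) for the 8 probe sets past the threshold, each point 1 pig against 1 pig. Both symbols lie on the same side of 0 for every probe set, and PRKACB and SMPDL3A show the lower value in males. The probe sets were called on the same pigs, so the shared side was largely set by that choice.

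A list of 22 genes taken as targets of CREB in liver held 11 that were measured, each by its brightest probe set. Of these 6 rose and 0 fell on the GCRMA values, with a median difference of 0.42. The same limma fit called 27.1% of the 850 named genes, 20.7% of them higher and 6.35% lower, with a median of 0.10. FOS, an AP-1 partner of JUN, read 10.45 and 10.25 with clenbuterol and 8.76 and 8.76 in controls, a rise of 1.59 ± 0.10 (adjusted p 0.00471). DUSP1, a phosphatase that switches off MAP kinases, rose by 1.25 ± 0.10 (adjusted p 0.0058). SLC2A2, the liver glucose transporter GLUT2, rose by 1.02 ± 0.09, and TAT, tyrosine aminotransferase, by 0.76 ± 0.08. A second TAT probe set differed by only 0.14 (adjusted p 0.325 by limma). On the intensities it differed by 0.74 (adjusted p 0.0489 by limma), so its reading depended on the values used. The deposited symbol of both TAT probe sets is CD39, so their gene is uncertain. CPT1A, which carries fatty acids into mitochondria, rose by 0.42 ± 0.08 and PPARGC1A as given above. The TAT call ended without clenbuterol array 1 (0.058) or clenbuterol array 2 (0.0523), and that of CPT1A without any 1 array (0.0946 to 0.134). PCK1, the gluconeogenic enzyme PEPCK and a classical target of CREB, read 13.58 and 13.58 with clenbuterol and 13.89 and 13.85 in controls and did not pass (−0.29, adjusted p 0.0608). IGFBP1 differed by −0.02 and PER1 by 0.04. CREM and PDE4B, also on this list, were at 0.18 and −0.28 without a call. On the intensities PDE4B was called lower, as given above (−0.82, adjusted p 0.0229 by limma).

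In the list of 19 CREB family members and coactivators, only 4 genes were measured, of which 3 fell and 0 rose (median −0.73). Among the 850 named genes 6.35% were called lower and 20.7% higher. CREM, the fourth, was at 0.18 and did not pass. CRTC3, a coactivator that binds CREB, read 5.71 and 5.54 with clenbuterol and 7.07 and 6.89 in controls (−1.36 ± 0.11, adjusted p 0.00602 by limma). Its second probe set, at 3.39 and 3.41 with clenbuterol and 4.00 and 4.01 in controls, passed the filter only through the controls and is no further support. EP300, a histone acetyltransferase recruited by CREB, was lower by a difference of −0.44 ± 0.10 (adjusted p 0.0402); CREB3L3 was the third. Scaling to the spikes kept the signs of these 3 brightest probe sets but left only CREB3L3 (probe set a) past the threshold, at −0.67, with CRTC3 at −0.47 (adjusted p 0.118) and EP300 at −0.07 (adjusted p 0.834). EP300 also lost its call without any 1 array (0.0761 to 0.149).

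Upstream of the kinase few genes changed, where the same fit called 27.1% of the 850 named genes. Of 3 measured receptors 0 passed the threshold of limma, while 2 had an unadjusted p below 0.05: VIPR1, for vasoactive intestinal peptide, was at −0.70, PTH1R, for parathyroid hormone, at −0.39, and GCGR, the glucagon receptor, at −0.19. No probe set of a beta-adrenergic receptor was among the measured list genes. Of 8 measured genes of G proteins and receptor desensitisation, 1 rose: RGS2, which speeds the switching off of G proteins, read 9.19 and 9.06 with clenbuterol and 8.00 and 7.97 in controls (1.14 ± 0.09, adjusted p 0.0058 by limma). GNAS, the Gs alpha subunit, differed by −0.14. Of 3 measured genes for other cAMP effectors, RAP1B, a small GTPase that cAMP can activate without protein kinase A, rose by 0.65 ± 0.08 (adjusted p 0.0127), and its call ended on the intensities (0.074) and without any 1 array (0.0509 to 0.0606).

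Anchors and inhibitors of the kinase gave 0 calls among 4 measured genes by the brightest probe set, with 1 gene at an unadjusted p under 0.05. The share called over the 850 named genes was 27.1%. AKAP9 was at −0.29, AKAP8 at −0.38 and AKAP13 at 0.14. A second, dimmer AKAP13 probe set read 5.43 and 5.13 with clenbuterol and 4.56 and 4.05 in controls (0.97 ± 0.21, adjusted p 0.0391 by limma), so the AKAP13 probe sets disagreed; that call ended without control array 2 (0.0783), clenbuterol array 1 (0.147) or clenbuterol array 2 (0.0918). The 4 measured genes of glycogen breakdown and synthesis, a classical output of protein kinase A in liver, also gave 0 calls with 1 at an unadjusted p under 0.05; PHKB was at −0.25, PYGL at −0.22, PGM1 at 0.27 and UGP2 at 0.06.

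Partners and targets of PPARGC1A were measured for 13 of 24 list genes, of which 4 rose and 0 fell (median 0.18). The share called was near the 27.1% over all named genes, of which 20.7% were higher and 6.35% lower (median 0.10). Besides PPARGC1A and CPT1A these were FOXO1, a transcription factor of fasting, at 0.58 ± 0.08 (adjusted p 0.0156 by limma), and ALAS1, the first enzyme of heme synthesis, at 0.42 ± 0.10 (adjusted p 0.0441). The other ALAS1 probe sets gave 1.26 and 1.12, with adjusted p of 0.0058 and 0.00593. Leaving out any 1 array ended the calls of FOXO1 (0.0562 to 0.0728) and of the brightest ALAS1 probe set (0.0733 to 0.142). Mitochondrial genes of the list such as COX5B, at −0.04, and CYCS, at 0.18, did not pass. CS, citrate synthase, did not pass by its brightest probe set (0.17, adjusted p 0.208), but a second probe set was at 0.45 ± 0.09 (adjusted p 0.0321, or 0.0821 to 0.124 without any 1 array).

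All 4 measured genes of the JUN kinase list passed: GADD45G, a stress sensor that can start the JUN kinase cascade, read 7.38 and 7.44 with clenbuterol and 5.09 and 4.54 in controls (2.60 ± 0.20, adjusted p 0.0058 by limma). GADD45B rose by 1.80 ± 0.12 and DUSP1 by 1.25 ± 0.10, while GADD45A fell to 7.88 and 7.82 with clenbuterol, against 8.84 and 8.76 in controls (−0.95 ± 0.08, or −0.33 with an adjusted p of 0.244 when scaled to the spikes). In the AP-1 list FOS and JUN rose, and ATF2 and ATF4 did not pass. Of 14 measured MYC target genes 3 rose and 1 fell (median 0.13), a share near the 27.1% called over all named genes. ODC1, the first enzyme of polyamine synthesis, rose by 1.18 ± 0.08 (adjusted p 0.00539), NCL, nucleolin, by 0.89 ± 0.11 and PHB, prohibitin, by 0.59 ± 0.08, and NOP56, a nucleolar protein, was at −0.47 ± 0.10 (adjusted p 0.0349). A second NCL probe set differed by 0.17 (adjusted p 0.772 by limma). The deposited symbol of both NCL probe sets is CALCRL, so their gene is uncertain. Leaving out any 1 array ended the calls of PHB (0.0581 to 0.0652) and NOP56 (0.0681 to 0.126), and that of NCL ended without control array 1 (0.0501) or clenbuterol array 2 (0.0533). FOS, DUSP1, JUN and MYC also make up the 4 measured genes of a list of early response genes that react to tissue handling, and all 4 rose; the part of handling in their values was not tested.

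**Figure D4:**
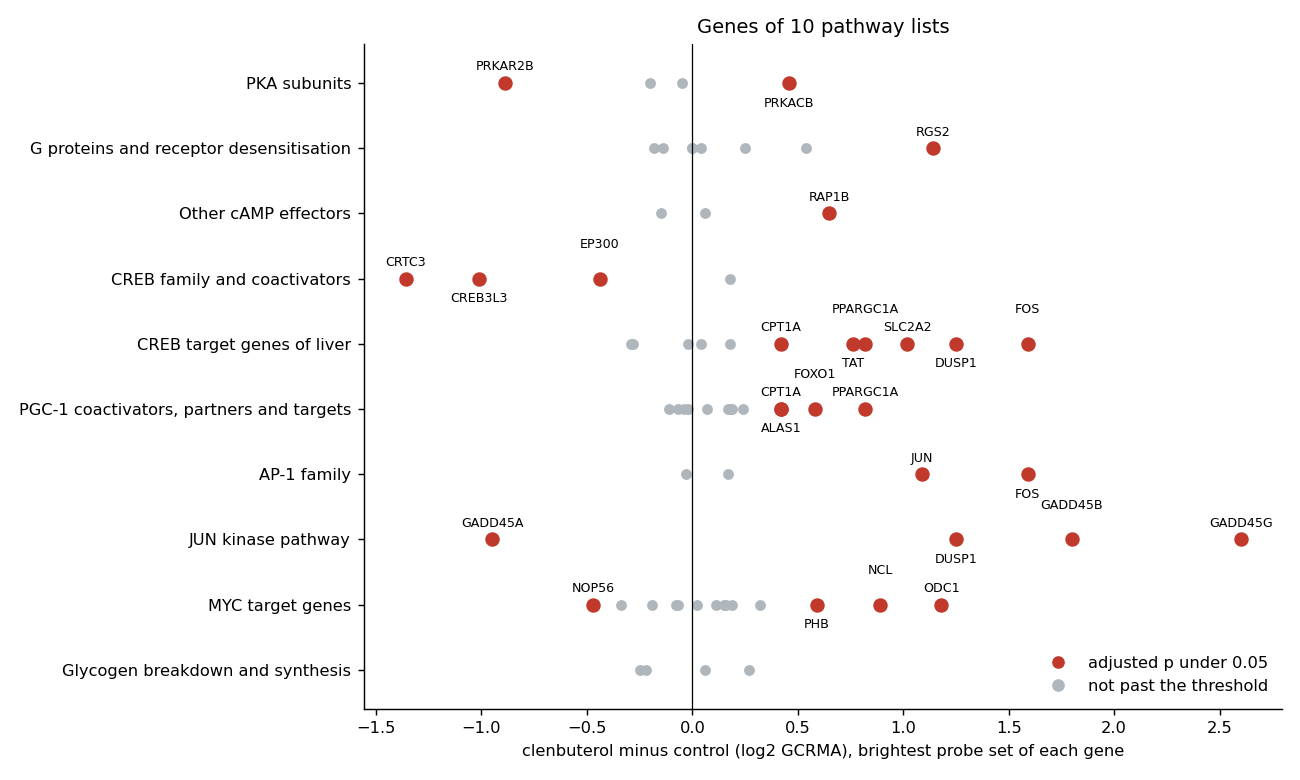
Clenbuterol minus control (log2 GCRMA, horizontal axis) for the measured genes of 10 pathway lists (rows), 1 point per gene at its brightest probe set; red points passed the adjusted threshold and carry their names. Red points of the CREB target list all lie right of 0, between 0.42 and 1.59, and those of the CREB family and coactivators all lie left of 0, between −1.36 and −0.44.

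Over the 4 arrays, the genes most like each of the 4 named genes were sought among the 849 other named genes, by the distance between log2 values centred on their own mean. For PRKACB these included FCGR3A (distance 0.05) and ADIPOR2 (0.07). For PPARGC1A they included TAT and MCT7, each at 0.08. For JUN they were ATP1B1 (0.20), ANXA1 (0.25) and CLDN5 (0.26), and for MYC NR1I2 (0.05), RAB14 (0.08) and PSME1 (0.10). With 4 arrays such likeness says little beyond a shared difference between groups.

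Other features of the arrays moved with treatment beside these results. For the marker counts that follow, the share over the 850 named genes was 20.7% called higher and 6.35% lower. Hepatocyte markers marked the tissue as liver: 1 of 11 measured (TAT) rose, and their summed intensity was 283849 to 306571 with clenbuterol and 277754 to 312020 in controls. Of 7 macrophage markers 3 rose (summed 50070 to 51578 with clenbuterol, 44008 to 44046 in controls), of 5 T or NK cell markers 2 rose (1869 to 1989 with clenbuterol, 1387 to 1545 in controls), and of 7 stellate cell markers 4 rose and 1 fell (14410 to 14761 with clenbuterol, 10542 to 10688 in controls). One of the 3 macrophage markers, the receptor MARCO, read 4.51 and 4.33 with clenbuterol and 2.31 and 2.52 in controls, so it passed the filter only through the clenbuterol group. Both erythroid markers fell, HBA1 at −0.47 and HBB at −0.34 (summed 54111 to 56253 with clenbuterol, 63183 to 72668 in controls). The deposited symbols are H3F3A and OAZ1 for the HBA1 probe set and ALB and OAZ1 for that of HBB, so their genes are uncertain. Of 3 cholangiocyte markers CLDN4 (−0.52) and GGT1 (−0.74) fell, and EPCAM, at 0.30, did not pass (adjusted p 0.0695 by limma). Their summed intensities overlapped (1070 to 1308 with clenbuterol, 1302 to 1326 in controls). Of 4 endothelial markers CLDN5 (0.94) and PECAM1 (0.39) rose, VWF (−0.96) fell and CDH5, at −0.10, did not pass, so they did not move together. The intensities ended the calls of CLDN5, PECAM1 and VWF (adjusted p 0.226, 0.356 and 0.0852 by limma). On the intensities HBA1, HBB, CLDN4 and GGT1 lost their calls (adjusted p 0.123, 0.262, 0.224 and 0.256 by limma). So did the rising markers MARCO, AIF1, GZMB, TIMP1 and COL3A1, whereas TAT, CD14, CD2, COL1A1 and DCN kept theirs. The gap between 3′ and 5′ control probe sets was smaller with clenbuterol, without overlap, for 5 of 6 control pairs. In bulk liver, fewer cells of a type and less RNA per cell cannot be told apart, and the part of these shifts in the values of PRKACB, PPARGC1A, JUN, MYC and their pathway was not tested.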

How the data were processed

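Liver RNA of 4 pigs was hybridised to Affymetrix porcine arrays, from 6 ug of total RNA each, per the labels' protocols. The authors deposited log2 values made with GCRMA (per the file headers; also named in the submitters' processing notes, without a version). Those columns can be tied to a group by the deposited group means, but their names give no pig or sex. A match of the columns to pigs through the intensities was not tested. The series value table deposited beside it holds a linear intensity for each probe set and array, with replicate numbers and no account of how it was made. A fold with a sign, used as a score, a p-value from limma and another column, a 0 or 1 flag, come from the authors, per the file headers.

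Differences were tested by limma (version 3.58.1, lmFit then eBayes, under R 4.3.3) with group alone in the model, over 11931 probe sets with Benjamini-Hochberg adjustment. Sex pairs and several alternatives used log2 intensities. Symbols were used only where the array description named the same gene, and were brought up to date from the RefSeq genes of Sscrofa11.1 by gene ID, for names only (2051 probe sets matched); other list genes were named from highly or moderately similar descriptions. The brightest tested probe set stood for a gene in the 16 pathway and 12 marker lists. Members and lists were chosen with earlier results of these data known. Every tested member of the kinase, CREB and cyclase groups, every called member and up to 4 genes per list with the smallest p were named; a few more list genes and second probe sets were named after their values were seen. For each of PRKACB, PPARGC1A, JUN and MYC the 3 most like genes were sought, and a few of them are not reported here. On simulated data with 11931 probe sets the fit recovered 10 of 50 probe sets changed by 0.5 (log2). It recovered 46 of 50 changed by 1 and 50 of 50 changed by 2, and called 12 that were not changed. Far fewer probe sets were changed there than were called in these data. Recovery depends on that share, so these counts do not carry over to the calls here. With 2 arrays a group the precision of each value is limited by their number. The p-values set the difference between groups against the spread between pigs of 1 group. Limma draws that spread towards the spread of all tested probe sets. No sequences are shown because none were used here.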

Additional observations from a re-analysis of the deposited data

Results flagged for a closer look

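With 1 pig per sex and group, 10 probe sets among the tested members and the genes with the smallest p in each pathway list moved in opposite directions between the males and between the females (clenbuterol minus control, log2 intensity); the difference between pairs was not tested, and none of the 10 passed the threshold over all 4 arrays. CREBL1 differed by 0.21 between the males and −0.45 between the females, the widest of these 10. SMPD1 was at 0.48 in males and −0.01 in females and ENPP6 (probe set a) at 0.36 and −0.04. AKAP9 was at 0.05 in males and −0.29 in females, and PTH1R at 0.07 and −0.25. Smaller splits were seen for PKIG (probe set a) at −0.20 and 0.03, UGP2 at −0.07 and 0.13, RAPGEF2 at 0.09 and −0.08, CREM (probe set d) at −0.07 and 0.07 and PRKAR1A (probe set a) at 0.06 and −0.07.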

How the results depend on the processing

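The 8 calls among the members stayed at 8 with a stricter filter at 6 and with an intensity trend, and were 6 without a filter. On the intensities 5 members passed (1 higher, 4 lower), 5 with the replicate block and 6 after quantile normalisation; leaving out 1 array each gave 2 to 5. Of the 8, 4 kept their call on the intensities and 4 with the block, where JUN passed (0.0442) and CREB3L3 (probe set b) did not (0.0541). Over all probe sets 2843 calls became 1326 on the intensities, 1054 with the replicate block, 1298 after quantile normalisation, and 579 to 1213 with 1 array left out. Fewer arrays enter the last; the cause of the others was not tested. The replicate numbers share a sex, and deviations of same-numbered pigs from their group mean correlated at 0.177 over probe sets, from only 2 pairs. A count of calls within either pair was not possible.

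Scaling the intensities to 27 spiked-in transcripts moved the overall median difference to 0.35, against −0.03, and gave 3213 calls, 2959 of them higher, and 12 calls among the members, 10 higher. Signs turned there, with no call, for PRKAR1A (probe set b) at 0.23, PKIG (a) at 0.29, CREBL1 at 0.25, CREM (c) at 0.17, PDE6D at 0.20, SMPD2 (a) at 0.21, CNP (b) at 0.19, RAP1A at 0.19, PYGL at 0.26, ATF4 at 0.29, VIPR1 at 0.09, AKAP9 at 0.26, PTH1R at 0.28, GCGR at 0.21, GNG5 at 0.14, PHKB at 0.08 and AKAP8 at 0.07. MXD3 turned to −0.42 on the intensities and with the replicate block, −0.05 scaled to spikes and −0.45 after quantile normalisation, and PRKAR1A (a) to −0.01 on the intensities and with the block. With 1 array left out the sign turned, without a call, where PRKAR1A (a) ran from −0.09 to 0.09, PKIG (a) ran from −0.01 to 0.01, CREBL1 ran from −0.42 to 0.01, CREM (c) ran from −0.03 to 0.02, PDE6D ran from −0.24 to 0.04, CNP (a) ran from −0.01 to 0.02, RAPGEF2 ran from −0.02 to 0.13 and ATF4 ran from −0.06 to 0.00. Taking each gene's probe set with the smallest p gave 26 calls in place of 24 among 77 list genes, and 26 in place of 25 members had the same sign in both pairs after quantile normalisation. Dropping phosphodiesterases of other substrates, chosen after seeing the data, left 6 calls among 21.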
